A study of Mus musculus with 9 samples.

Results

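The SIBLING genes (small integrin-binding ligand, N-linked glycoproteins) of mouse chromosome 5 are Dmp1, Ibsp, Spp1, Mepe and Dspp. These 5 genes were taken by name from the 39179 genes counted in each library, and each name matched 1 Ensembl identifier. The 9 RNA libraries, 5 from juvenile (4-week-old) and 4 from adult (12-week-old) mice, were made from pieces of femur that a laser cut out of the ossification front (OF), each holding a capillary and its neighbouring cells. All mice were Tg(TIE2GFP)287Sato/J on a C57BL/6 background, in which the Tie2 promoter drives green fluorescent protein in endothelial cells, and the green vessels guided the laser. Each library came from 1 mouse. Total counts were 5706342, 7398483, 4856833, 5844430 and 5001866 in juvenile libraries 1 to 5 and 8077362, 5821596, 7775714 and 7206651 in adult libraries 1 to 4. Juvenile libraries 4 and 5 held 524 and 439 counts of the Y-linked gene Ddx3y, whereas the other 7 libraries held at most 1, so sex and age were not balanced. The ages were compared to see what differs near the vessels once growth has slowed.

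SIBLING proteins are secreted, acidic and heavily phosphorylated. They carry an Arg-Gly-Asp motif that binds integrins, and in bone they attach to mineral and to collagen, where they set how hydroxyapatite crystals form and grow. Osteoblasts and osteocytes are their main sources in the skeleton, and Dspp belongs chiefly to the odontoblasts of the tooth.

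All 5 genes lie on the plus strand of chromosome 5 (GRCm38), in the order Dspp, Dmp1, Ibsp, Mepe and Spp1, over 270.3 kb from position 104170712 to 104441050. Dspp (ENSMUSG00000053268) occupies 104170712 to 104180127 and has 5 exons. After a gap of 22.5 kb, Dmp1 (ENSMUSG00000029307) occupies 104202613 to 104214102 with 6 exons. Ibsp (ENSMUSG00000029306), at 104299171 to 104311469 with 7 exons, is separated from Dmp1 by 85.1 kb. Only 13.9 kb further, Mepe (ENSMUSG00000053863) spans 104325329 to 104338611 with 3 exons. Spp1 (ENSMUSG00000029304), at 104435118 to 104441050, stands 96.5 kb beyond Mepe, and part of its exons overlaps Gm42793, a gene model on the same strand that the files do not hold, so reads of the 2 in that overlap cannot be told apart.

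Dmp1 and Ibsp were higher in the juvenile OF, Spp1 was not separated by age, Mepe was low at both ages with a wide spread, and Dspp was hardly counted. Of the 4 members that passed the filter on low counts, 2 were called, both with higher juvenile levels (edgeR's quasi-likelihood test, Benjamini-Hochberg adjusted p below 0.05). Among all 13418 genes tested, 520 (3.88%) were called in either direction, 267 (1.99%) toward the juvenile and 253 (1.89%) toward the adult side. The total was 332, 293, 275 and 262 genes without juvenile library 2, 3, 4 or 5, respectively. The same 2 members were the ones whose normalized counts did not overlap between the ages, as did 1228 genes in all (9.15%). In these bulk samples, fewer cells of a type and less RNA per cell cannot be told apart.

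Dmp1 encodes dentin matrix protein 1, which binds calcium, promotes mineral formation and keeps phosphate in the body by restraining Fgf23. Its normalized counts (counts divided by the scaling factor of the library) were 10458, 12698, 9167, 6730 and 5426 in juvenile libraries 1 to 5. Adult libraries 1 to 4 had 2331, 3095, 2018 and 1911. Every juvenile library exceeded every adult library, and within the juvenile mice libraries 4 and 5, which held the Y-linked counts, were the lowest. Juvenile libraries averaged 8896 ± 2903 (SD, n = 5), adult ones 2339 ± 535 (SD, n = 4). The age difference was a log2 fold change of 1.93 (SE 0.25), juvenile over adult, with a 95% interval of 1.38 to 2.48 (edgeR's quasi-likelihood test, Benjamini-Hochberg adjusted p = 0.00203). Without juvenile libraries 4 and 5 it was 2.21 (edgeR's quasi-likelihood test, Benjamini-Hochberg adjusted p = 0.0074, between 2.83e-11 and 0.00873 over the alternatives).

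Ibsp encodes bone sialoprotein, a nucleator of hydroxyapatite made where new bone is laid down. Juvenile libraries 1 to 5 had 114331, 118270, 149525, 186723 and 109002 normalized counts, and adult libraries 1 to 4 had 51197, 69295, 61118 and 39396. The ages did not overlap, and the juvenile library with the highest Ibsp, number 4, was among those with the lowest Dmp1. Juvenile libraries averaged 135570 ± 32664 (SD, n = 5), adult ones 55252 ± 12903 (SD, n = 4). On the log2 scale Ibsp was 1.29 higher in the juvenile OF (SE 0.21), with a 95% interval of 0.85 to 1.74 (edgeR's quasi-likelihood test, Benjamini-Hochberg adjusted p = 0.00535). With the replicate number as a block it was 1.36 and missed the threshold (edgeR's quasi-likelihood test, Benjamini-Hochberg adjusted p = 0.0555, between 2.96e-07 and 0.0555 over the alternatives).

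Spp1 encodes osteopontin, an inhibitor of crystal growth and a ligand of integrins and of Cd44 that osteoclasts and macrophages make as well as osteoblasts. Its normalized counts were 26856, 28706, 19647, 21485 and 15777 in juvenile libraries 1 to 5 and 29188, 27881, 13278 and 9454 in adult libraries 1 to 4. The ages overlapped: adult library 2 lay within the juvenile range, adult library 1 just above it and adult libraries 3 and 4 below it. Juvenile libraries averaged 22494 ± 5288 (SD, n = 5), adult ones 19950 ± 10049 (SD, n = 4). The log2 fold change of 0.17 (SE 0.31) had a 95% interval of -0.49 to 0.84, which takes in changes in both directions (edgeR's quasi-likelihood test, Benjamini-Hochberg adjusted p = 0.856). Without adult library 4 the log2 fold change of Spp1 was -0.079.

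Mepe encodes matrix extracellular phosphoglycoprotein, whose acidic ASARM peptide inhibits mineralization and which osteocytes make in mature bone. The raw counts were 0, 50, 42, 305 and 16 in juvenile libraries 1 to 5 and 455, 111, 320 and 291 in adult libraries 1 to 4. The 0 in juvenile library 1 allows up to 0.526 CPM (counts scaled to a common library total), taken as 3 counts of the library total, a limit that covers counting error only since PCR copies are not independent molecules. Juvenile normalized counts averaged 96.4 ± 149 (SD, n = 5), adult ones 231 ± 88.1 (SD, n = 4). Juvenile library 4, at 359, lay above every adult library, while the other 4 juvenile libraries, at 0 to 56.1, lay below all of them. The estimate was a log2 fold change of -1.26 (SE 0.97), with a 95% interval of -3.36 to 0.84, and did not pass (edgeR's quasi-likelihood test, Benjamini-Hochberg adjusted p = 0.587). Without juvenile library 4 it was -2.91 (edgeR's quasi-likelihood test, Benjamini-Hochberg adjusted p = 0.133, with adjusted p between 0.133 and 0.756 over the alternatives). Over the alternatives the log2 fold change of Mepe ran from -3.13 in limma voom to -0.94 without juvenile library 1. It was -2.77 without juvenile libraries 4 and 5 and -2.03 with the replicate number as a block.

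Dspp encodes the precursor of dentin sialoprotein and dentin phosphoprotein. It had 8 counts in juvenile library 2 and 0 in the other 8 libraries, and the filter removed it, so it has no test. A count of 0 allows between 0.371 and 0.618 CPM, depending on the library.

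**Figure D1:**
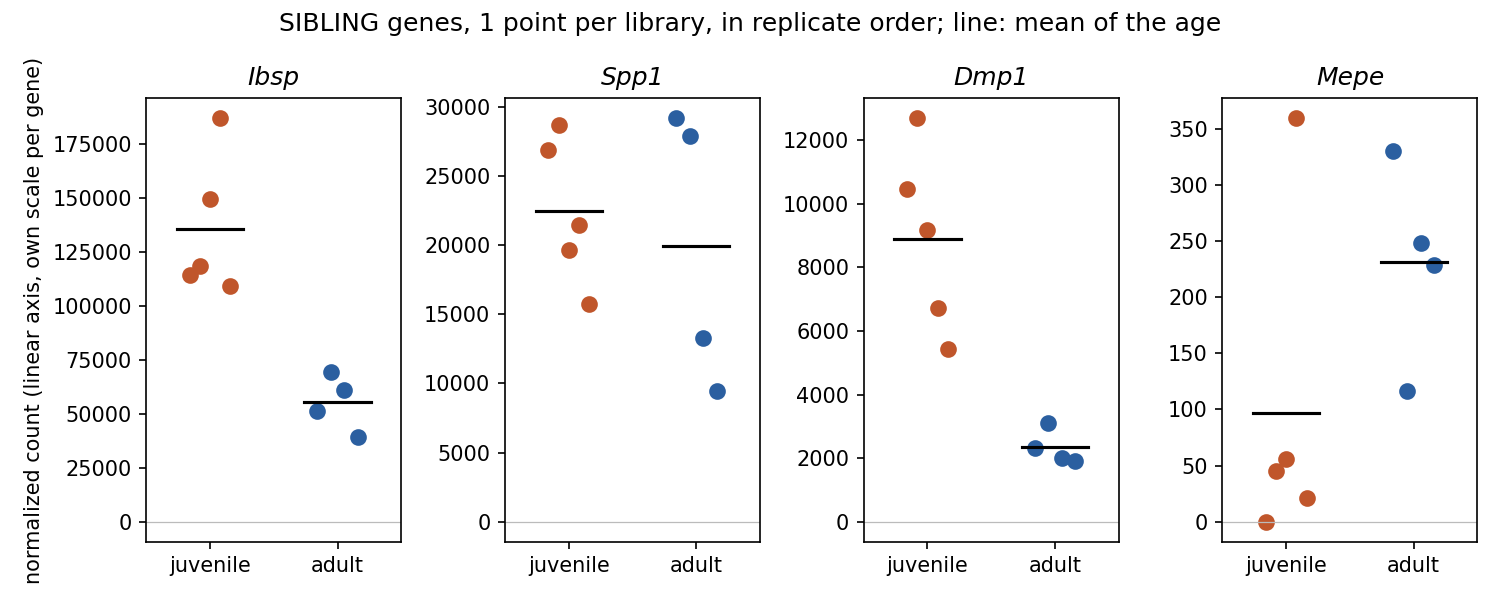
Normalized counts (linear axis, its own scale for each gene) of Ibsp, Spp1, Dmp1 and Mepe in 5 juvenile and 4 adult libraries, with 1 point per library and a line at the mean of each age. Dmp1 (5426 to 12698 against 1911 to 3095) and Ibsp (109002 to 186723 against 39396 to 69295) are separated by age, and Spp1 and Mepe overlap.

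Levels of the SIBLING genes were compared with each other only per length, as CPM per kilobase of merged exon. On this scale the order was Ibsp, Spp1, Dmp1, Mepe and Dspp, except that the last 2 were both at 0 in juvenile library 1. Juvenile Ibsp levels averaged 9849 ± 2209 (SD, n = 5), adult ones 4493 ± 915 (SD, n = 4). For Spp1 the levels were 2057 ± 490 and 2035 ± 1009. Dmp1 levels averaged 486 ± 161 (SD, n = 5) and 143 ± 29.3 (SD, n = 4). Mepe levels of 8.42 ± 12.8 (SD, n = 5) and 23.3 ± 9.11 (SD, n = 4) were the lowest among the tested members. Neighbours in the order from Ibsp to Mepe did not overlap in level within either age. In adult mice the lowest Ibsp level was 3362 and the highest Spp1 level 3022.

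The members were also read as parts of the family's output. As a share of the summed level of the 5 genes, Ibsp took 72.2% to 85.2% in juvenile and 56.9% to 76.8% in adult libraries. Spp1 took 12.3% to 22.0% in juvenile and 20.9% to 40.7% in adult libraries. Dmp1 took 5.02%, 5.80%, 3.79%, 2.30% and 3.06% in juvenile libraries 1 to 5 and 1.94%, 2.17%, 1.90% and 2.70% in adult libraries 1 to 4. All 3 of these shares overlapped between the ages, and they are given as a description with no test. The share of Mepe stayed under 1% in every library, at most 0.531% (adult library 4).

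Whether Dmp1 differed with age more than its neighbours was asked within each library, through the log2 ratio of the normalized counts (+ 0.5) of 2 members, in which the scaling factor of the library cancels apart from the pseudocount. For all 6 pairs of the 4 tested members a two-sided exact permutation test ran over the 126 ways to divide the libraries, for which the smallest possible p is 0.00794. The ratio of Dmp1 to Spp1 was 0.389, 0.442, 0.467, 0.313 and 0.344 in juvenile libraries 1 to 5 and 0.0799, 0.111, 0.152 and 0.202 in adult libraries 1 to 4. Each juvenile ratio was above each adult ratio, so Dmp1 and Spp1, at opposite sides of Ibsp and Mepe, differed in their age difference. On the log2 scale the juvenile mean was 1.59 above the adult mean (two-sided exact permutation test, p = 0.00794, 0.0476 after Benjamini-Hochberg adjustment over the 6 pairs). The SDs were 0.24 in juvenile and 0.58 in adult mice.

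The ratio of Dmp1 to Ibsp was 0.0915, 0.107, 0.0613, 0.0360 and 0.0498 in juvenile libraries and 0.0455, 0.0447, 0.0330 and 0.0485 in adult libraries. Juvenile libraries 1 to 3 were above all adult libraries, juvenile library 5 was just above them, and juvenile library 4 fell among them. The log2 difference was 0.59, with SDs of 0.64 in juvenile and 0.25 in adult mice (two-sided exact permutation test, p = 0.135, 0.135 after adjustment over the 6 pairs). Without juvenile library 4 the difference was 0.80, and without both juvenile libraries 4 and 5 it was 0.99 (exact permutation test, p = 0.0286 for each, over a range of 0.0286 to 0.232 for all alternatives of this pair). That p is the smallest that 3 or 4 juvenile against 4 adult libraries can give.

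Ibsp over Spp1 differed by 0.997 on the log2 scale, with juvenile ratios of 4.12 to 8.69 and adult ratios of 1.75 to 4.60 that overlapped (two-sided exact permutation test, p = 0.0714, 0.0857 after adjustment). The 3 pairs with Mepe had the largest estimates, and in juvenile library 1, with no Mepe count, the ratio rests on the pseudocount. The age difference of Dmp1 over Mepe was 4.99 on the log2 scale with the pseudocount of 0.5 and 4.25 with 5 (two-sided exact permutation test, p = 0.0238 for each, 0.0476 after adjustment for the first). The juvenile ratio was lowest in library 4, at 18.7, under the 26.5 of adult library 2, and 162 or more in the other 4 juvenile libraries. The age difference of Ibsp over Mepe was 4.40 (exact permutation test, p = 0.0238, 0.0476 after adjustment), and for Spp1 over Mepe 3.40 (exact permutation test, p = 0.0714, 0.0857 after adjustment). Without juvenile library 4 the age difference of Spp1 over Mepe was 4.37 (exact permutation test, p = 0.0286, between 0.0286 and 0.196 over the alternatives). Leaving out any single library other than juvenile 4 took the Dmp1 over Mepe and the Ibsp over Mepe differences past 0.05, to exact permutation p-values of at most 0.0893, with log2 differences of 3.50 to 5.43 and 3.04 to 4.82.

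**Figure D2:**
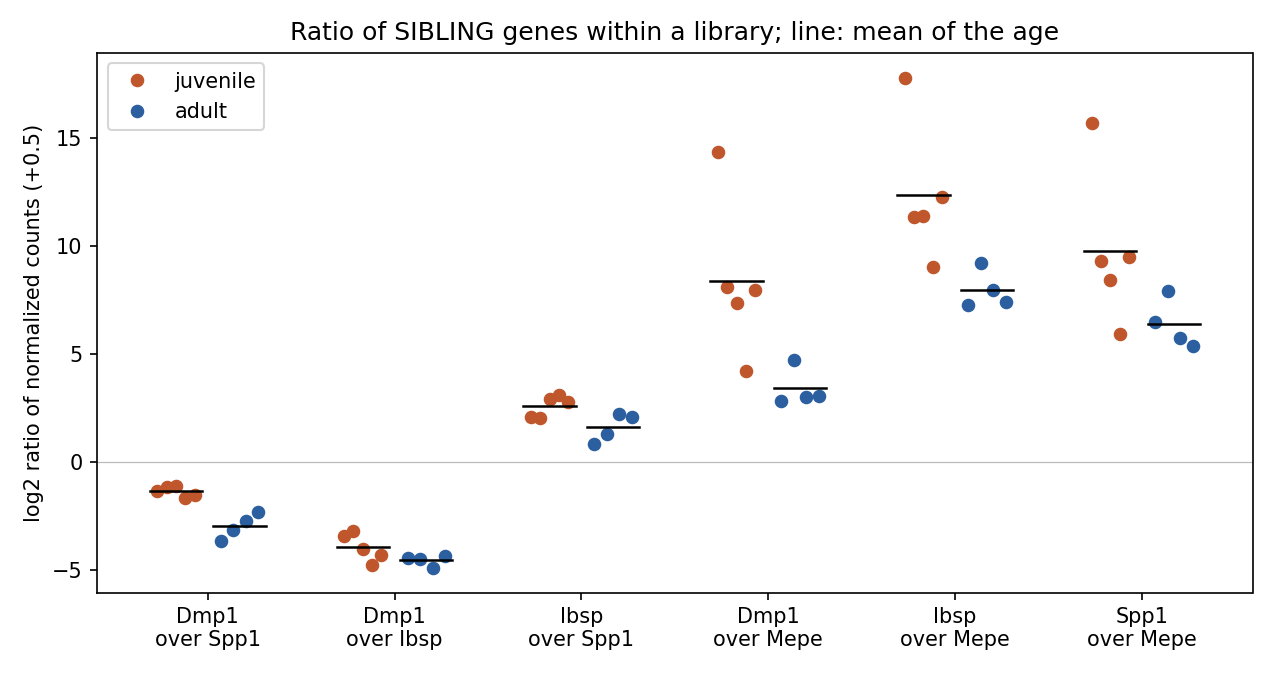
Log2 ratio of normalized counts (+ 0.5) of 2 SIBLING genes within a library, for 6 pairs, with 1 point per library (5 juvenile, 4 adult) and a line at the mean of each age. The Dmp1 over Spp1 ratios of the ages do not overlap (mean difference 1.59), and the highest point of each Mepe pair is juvenile library 1, which had 0 Mepe counts.

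The members were next set beside the osteoblast signal of the same library, as the log2 normalized count minus the mean of the same value over 12 osteoblast markers. This list averaged 13.32 ± 0.03 (SD, juvenile, n = 5) and 12.91 ± 0.25 (SD, adult, n = 4), a difference of 0.41. Of its markers, 10 had log2 fold changes above 0, and Bglap (-2.04) and Bglap2 (-2.38) were below 0. That pair lowers the age difference of the list mean and so raises that of each member relative to the list. The list shares genes, among them Sp7, Runx2, Dlx5 and Sparc, with the lists of regulators and relatives of the family. Relative to it, Dmp1 had a juvenile excess of 1.48 and Ibsp one of 0.89, both without overlap (two-sided exact permutation test, p = 0.00794 for each, 0.0159 after Benjamini-Hochberg adjustment over the 4 members). Spp1 differed by -0.11 (exact permutation test, p = 0.754, 0.754 after adjustment). Mepe differed by -3.51 and did not pass after adjustment (exact permutation test, p = 0.0476, 0.0635 after adjustment, with unadjusted p between 0.0238 and 0.125 over its alternatives). Without juvenile library 5 or adult library 1 or 2, Spp1 relative to the osteoblast list was 0.010, 0.068 and 0.12. Without any single library but juvenile 4, Mepe relative to the osteoblast list also had an unadjusted p above 0.05, at -3.82 to -2.10. These values depended on the reference: against Col1a1 and Col1a2 alone, the chains of type I collagen, the Dmp1 difference was 0.57 (exact permutation test, p = 0.119) and the Ibsp difference was -0.03 (exact permutation test, p = 0.897). The Spp1 difference was then -1.02 (exact permutation test, p = 0.00794, between 0.00794 and 0.971 over its alternatives). Without juvenile libraries 4 and 5, Ibsp relative to the osteoblast list differed by 0.83 (exact permutation test, p = 0.0571, with 0.0286 the smallest possible, and between 0.00794 and 0.897 over the alternatives).

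The osteoblast markers themselves went in both directions. Of the 12, 6 were called toward the juvenile and 2 toward the adult side, with a median log2 fold change of 0.79 beside -0.01 over all genes tested. Their summed level was 189728, 200082, 181500, 213368 and 211112 CPM in juvenile libraries 1 to 5 and 106794, 105671, 109372 and 77384 CPM in adult libraries 1 to 4, and none of the 12 was at 0. Col1a2, the most abundant, had a log2 fold change of 1.25 (SE 0.15), Col1a1 one of 1.37 (SE 0.14) and Ifitm5, a membrane protein of mineralizing osteoblasts, one of 0.99 (SE 0.21). Without juvenile library 3 or 4 the log2 fold change of Ifitm5 missed the threshold, at 0.94 and 0.96, as it did with the block (1.10) and without juvenile libraries 4 and 5 (1.03). Bglap and Bglap2, near-identical osteocalcin genes whose counts may be shared, had -2.04 (SE 0.40) and -2.38 (SE 0.41). Without juvenile libraries 4 and 5 the log2 fold change of Bglap was -1.83 and the log2 fold change of Bglap2 -2.30, and neither was called (edgeR's quasi-likelihood test, Benjamini-Hochberg adjusted p = 0.150 and 0.107, with adjusted p between 0.000142 and 0.150 over the alternatives of both). The part of osteoblast abundance in the Dmp1 and Ibsp differences was not tested.

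Osteocytes, the cells buried in bone, also make Dmp1 and Mepe. Of 8 osteocyte markers, 7 were tested and 0 passed edgeR's test, with 4 at an unadjusted p under 0.05, 2 called by DESeq2 and 0 by limma voom, and 3 estimates were above 0 and 4 below. The summed level was 555, 710, 679, 393 and 507 CPM in juvenile libraries 1 to 5 and 747, 626, 827 and 644 CPM in adult libraries 1 to 4. The ages overlapped, and Fgf23 was at 0 in all 9 libraries. Phex had the highest mean in juvenile libraries (1610 normalized counts), and Capg in adult ones (1604, against 1269 for Phex). Pdpn (1.55), Irx5 (0.59) and Phex (0.34) had estimates toward the juvenile side. On the adult side were Fbln7 (-2.19), whose ages did not overlap, Capg (-0.69), Dkk1 (-0.64) and Sost. Sost, which encodes sclerostin and defines mature osteocytes and was chosen after its values were seen, averaged 15.3 ± 16.5 (SD, juvenile, n = 5) and 161 ± 120 (SD, adult, n = 4) normalized counts, without overlap. Its log2 fold change of -3.40 (SE 1.03) did not pass (edgeR's quasi-likelihood test, Benjamini-Hochberg adjusted p = 0.0881) but passed in DESeq2 (Benjamini-Hochberg adjusted p = 0.00747, between 0.00747 and 0.363 over the alternatives). The part of osteocytes in the Dmp1 and Mepe values was not tested.

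Markers of other cells in bone were read in the same way. Osteoclast markers, of a cell that makes Spp1, summed to 16887, 20217, 15411, 12238 and 13127 CPM in juvenile and 25217, 24599, 27110 and 18902 CPM in adult libraries. The median log2 fold change of the 10 was -0.12, with 3 estimates above 0 and 7 below. Of them, 2 were called, both toward the adult side: Acp5 (log2 fold change -0.88, SE 0.14), the most abundant, and Atp6v0d2 (-0.93, SE 0.23). With the replicate number as a block (-0.86) and without juvenile libraries 4 and 5 (-0.80) the log2 fold change of Acp5 missed the threshold. Leaving out any single library but juvenile 1 ended the Atp6v0d2 call, with the log2 fold change of Atp6v0d2 between -1.01 and -0.82, as did the block (-0.90) and leaving out juvenile libraries 4 and 5 together (-0.68). Macrophage markers, also of a cell that makes Spp1, summed to 800, 665, 655, 442 and 583 CPM in juvenile and 1963, 1137, 1405 and 1700 CPM in adult libraries, without overlap. Csf1r, the most abundant of these 8, and Vcam1 were higher in adult mice, at -1.03 (SE 0.16) and -2.97 (SE 0.54). Without juvenile library 2 the log2 fold change of Vcam1 was -3.66, and it missed the threshold with the block (-3.54) and without juvenile libraries 4 and 5 (-2.64). The part of both cell types in the Spp1 values was not tested.

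Blood and marrow markers had far larger differences. The erythroid list summed to 2353, 947, 352, 421 and 323 CPM in juvenile and 7727, 4279, 10504 and 37706 CPM in adult libraries, and 7 of its 8 genes were called, all higher in adult mice (Hbb-bs, the most abundant, at -4.13, SE 0.69). The log2 fold change of Hbb-bs was -4.86 without juvenile library 1 and -3.21 without adult library 4, and it missed the threshold with the block (-3.81) and without juvenile libraries 4 and 5 (-3.68). DESeq2 called 8 and limma voom 3 genes of this list. Other calls ended without some single library: Hba-a1 without juvenile 4 or 5, Hbb-bt without juvenile 4, Slc4a1 without juvenile 3 or 5 or adult 4, Alas2 without juvenile 2, 3 or 5 or adult 4, and Klf1 without juvenile 2, 3, 4 or 5 or adult 4. These estimates then ran from the log2 fold change of Klf1 of -6.00 to the log2 fold change of Alas2 of -2.75. The neutrophil list summed to 18.9, 37.6, 17.5, 65.7 and 24.2 CPM in juvenile and 4621, 105, 3619 and 3855 CPM in adult libraries. Of its 8 genes, 7 were called higher in adult mice, with S100a8 at -7.54 (SE 1.11). S100a8 had the highest adult mean (6017 normalized counts), while in juvenile libraries Mmp8 averaged 60.4, S100a9 49.3 and S100a8 32.5. Without juvenile library 4 the log2 fold change of S100a8 was -8.76, and DESeq2 called 6 genes of this list and limma voom 1. Without juvenile library 1, 3, 4 or 5 or adult library 1 or 4 the log2 fold change of Mpo missed the threshold, at -4.86 to -4.12. Megakaryocyte markers summed to 27.3, 16.2, 23.1, 11.8 and 18.0 CPM in juvenile and 655, 110, 64.8 and 4795 CPM in adult libraries. Of 8, 4 were tested and Pf4 was called at -6.60 (SE 1.01). Pf4 had the highest adult mean (4002 normalized counts), while in juvenile libraries Gp1bb averaged 66.2 and Pf4 41.45. Without adult library 4 the log2 fold change of Pf4 was -4.99. It missed the threshold with the block (-5.16), without juvenile libraries 4 and 5 (-6.28) and in limma voom (-5.54), which called 0 megakaryocyte genes, while DESeq2 called 3 and 4 had an unadjusted p under 0.05 in edgeR. Without haemoglobin, immunoglobulin and mitochondrial genes 516 genes were called in place of 520.

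Adipogenic stroma, the Cxcl12-rich reticular cells of marrow, summed to 457, 436, 439, 284 and 426 CPM in juvenile and 1010, 449, 1118 and 1325 CPM in adult libraries. Of 7 genes tested, Cxcl12 was higher in adult (-2.59, SE 0.37) and Lepr in juvenile mice (1.84, SE 0.27). Cxcl12 was the most abundant in adult libraries, whereas in juvenile libraries Lepr averaged 894 and Cxcl12 620 normalized counts. With the block (-2.36) and without juvenile libraries 4 and 5 (-2.33) the log2 fold change of Cxcl12 missed the threshold. Cartilage markers summed to between 2300 and 3493 CPM in juvenile and between 2108 and 6421 CPM in adult libraries, with 8 of 10 genes tested. Among them Col11a2, the most abundant, was higher in juvenile mice (0.80, SE 0.18), and Col2a1 (-2.62, SE 0.48) and Comp (-5.03, SE 1.16) were higher in adult mice. Without juvenile library 4 or 5 or adult library 1, 3 or 4 the log2 fold change of Col11a2 missed the threshold, at 0.68 to 0.78, as it did with the block (0.66) and without both juvenile libraries 4 and 5 (0.54). Without adult library 2 the log2 fold change of Col2a1 was -1.69 and the log2 fold change of Comp -2.59, and Comp missed the threshold without that library or any juvenile library. Col2a1 also missed it with the block (-2.09) and without juvenile libraries 4 and 5 (-2.33), and Comp without the latter pair (-4.88) and in limma voom (-3.58). The 8 endothelial markers, the vessels by which the tissue was chosen, summed to 610, 507, 395, 343 and 551 CPM in juvenile and 553, 605, 448 and 501 CPM in adult libraries, with Kdr the most abundant. By edgeR 0 of them were called, with 0 at an unadjusted p under 0.05 and 0 called by DESeq2 or limma voom. No marker of the osteoclast, chondrocyte, macrophage, endothelial, adipogenic, erythroid, neutrophil or megakaryocyte lists was at 0 in all 9 libraries.

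The genes that act on SIBLING proteins were read from lists of their own. Fam20c, the secretory kinase that phosphorylates these proteins, had normalized counts of 1154, 974, 971, 679 and 678 in juvenile libraries 1 to 5 and 625, 611, 441 and 648 in adult libraries 1 to 4. The ages did not overlap, but the log2 fold change of 0.62 (SE 0.22) did not pass (edgeR's quasi-likelihood test, Benjamini-Hochberg adjusted p = 0.140). The 3 kinases are named after their values were seen. The relatives Fam20a (-0.07, SE 0.45), a pseudokinase that assists it, and Fam20b (0.12, SE 0.34), a kinase of xylose in proteoglycans, overlapped between the ages. The log2 fold change of Fam20a was above 0 without juvenile library 1 or 3 or adult library 2 or 4 (0.017 to 0.12), and the log2 fold change of Fam20b below 0 without juvenile library 5 (-0.038) or adult library 1 (-0.059). By edgeR 0 of these 3 kinases were called, with 1 at an unadjusted p under 0.05 and 0 called by DESeq2 or limma voom.

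The proteases that cleave SIBLING proteins were partly higher in juvenile mice. Of 11, 6 were tested, 2 were called higher in juvenile and 0 in adult mice, and the median log2 fold change of the tested genes was 0.40. Bmp1, which cuts Dmp1 and Dspp into their fragments, averaged 9507 ± 1624 (SD, juvenile, n = 5) and 3709 ± 331 (SD, adult, n = 4) normalized counts, with a log2 fold change of 1.36 (SE 0.16; edgeR's quasi-likelihood test, Benjamini-Hochberg adjusted p = 0.00106). Mmp2, gelatinase A, averaged 4815 ± 286 (SD, juvenile, n = 5) and 1794 ± 431 (SD, adult, n = 4), with a log2 fold change of 1.42 (SE 0.17; edgeR's quasi-likelihood test, Benjamini-Hochberg adjusted p = 0.00109). Neither gene's ages overlapped. Phex, the endopeptidase that degrades ASARM peptides of Mepe and Spp1, had a log2 fold change of 0.34 (SE 0.28; edgeR's quasi-likelihood test, Benjamini-Hochberg adjusted p = 0.609). Tll1, Tll2, Mmp3, Mmp7 and F2 did not pass the filter, and Tll2 and Mmp7 were at 0 in all libraries.

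No receptor or partner was called. Of 10 integrin subunits and other binding partners, 9 were tested and 0 were called by edgeR, 0 by DESeq2, 0 by limma voom and 0 at an unadjusted p under 0.05, with 5 estimates above 0 and 4 below. In the hormone axis through which Dmp1, Mepe and Phex act on phosphate, Fgf23 was at 0 in all libraries, Kl, its co-receptor, did not pass the filter, and the receptor Fgfr1 was not called by edgeR, DESeq2 or limma voom (1 gene at an unadjusted p under 0.05). Without adult library 1, in a count per list that was added after seeing the data, edgeR called 1 gene of this axis.

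Transcription factors of osteoblasts that act on SIBLING genes were higher in juvenile mice in part. Of 9, 8 were tested and all 8 estimates were positive, with a median of 0.62, and 4 were called. Among these were Dlx3, a homeodomain protein (1.55, SE 0.26), Sp7 or osterix (1.02, SE 0.23), and Atf4, which acts on late osteoblast genes (0.62, SE 0.15). Runx2, the master factor of the lineage, had 0.62 (SE 0.22) and did not pass (edgeR's quasi-likelihood test, Benjamini-Hochberg adjusted p = 0.149). Without juvenile libraries 4 and 5, and with the replicate number as a block, 0 of the 8 were called. Leaving out a single library ended the call of Sp7 without juvenile 3, 4 or 5 or adult 3 or 4 (log2 fold change of Sp7 between 0.84 and 1.04). It ended that of Atf4 without any library but juvenile 2 (log2 fold change of Atf4 between 0.56 and 0.64). Mef2c was the most abundant, and Msx2 was not tested.

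The SIBLING genes belong to the wider SCPP family of secretory calcium-binding phosphoproteins, which arose from Sparc-like genes by duplication. Sparc itself, osteonectin, averaged 295225 ± 35041 (SD, juvenile, n = 5) and 127352 ± 27988 (SD, adult, n = 4) normalized counts without overlap (log2 fold change 1.21, SE 0.17; edgeR's quasi-likelihood test, Benjamini-Hochberg adjusted p = 0.00263). With the replicate number as a block the log2 fold change of Sparc was 1.23 and missed the threshold (edgeR's quasi-likelihood test, Benjamini-Hochberg adjusted p = 0.0529, between 5.35e-09 and 0.0529 over the alternatives). Of the 10 relatives, 2 were tested, of which edgeR called 1 (Sparc) and DESeq2 2, and edgeR with at least 10 counts in every library also called Sparcl1. The enamel and milk genes were hardly counted: Enam, Amtn, Odam, Csn1s1 and Csn2 were at 0 in every library, and Ambn, Amelx and Csn3 did not pass the filter.

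Whether the age difference extended along the chromosome was read from the genes within 500 kb of the cluster. Of 18 flanking genes in the libraries, 12 had a count and 9 were tested. By edgeR 0 of the 9 were called, with 1 at an unadjusted p under 0.05, 1 called by DESeq2 and 0 by limma voom. None of the 9 was free of overlap between the ages. Among all 13418 genes tested, edgeR called 3.88%, and 9.15% did not overlap. At those shares 9 genes are too few to be set apart from other genes. The 0 calls therefore do not tell whether the age difference ends at the cluster. The nearest tested gene on the Dspp side, Sparcl1, which is also the SCPP relative closest to Sparc, had normalized counts of 303, 104, 219, 151 and 209 in juvenile libraries 1 to 5 and 551, 631, 363 and 249 in adult libraries 1 to 4. Its log2 fold change was -1.19 (SE 0.35; edgeR's quasi-likelihood test, Benjamini-Hochberg adjusted p = 0.0824), and in DESeq2 the log2 fold change of Sparcl1 was -1.21 (Benjamini-Hochberg adjusted p = 0.0189, between 0.0189 and 0.356 over the alternatives). Pkd2, the nearest on the Spp1 side, which encodes the cilium channel polycystin 2, had 0.11 (SE 0.32), and the log2 fold change of Pkd2 turned to between -0.10 and -0.013 without juvenile library 5 or adult library 3 or 4. Further out, BC005561 had 0.30 (SE 0.25), D930016D06Rik 0.25 (SE 0.39), Nudt9, a nucleotide hydrolase whose exons overlap an antisense model, -0.16 (SE 0.20) and Hsd17b11, a steroid dehydrogenase, -0.37 (SE 0.31). At the edges lay Klhl8 (-0.10, SE 1.02), Aff1, an elongation factor subunit (-0.06, SE 0.27), and Zfp951 (1.57, SE 1.51), which had counts in 5 libraries. Without adult library 3, the 1 adult library that counted it, the log2 fold change of Zfp951 was 6.50 and rests on the prior count, and with the block it was 3.30. The log2 fold change of Klhl8 was 0.059 to 0.41 without juvenile library 1 or adult library 1 or 4, and the log2 fold change of Aff1 0.074 without juvenile library 1.

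**Figure D3:**
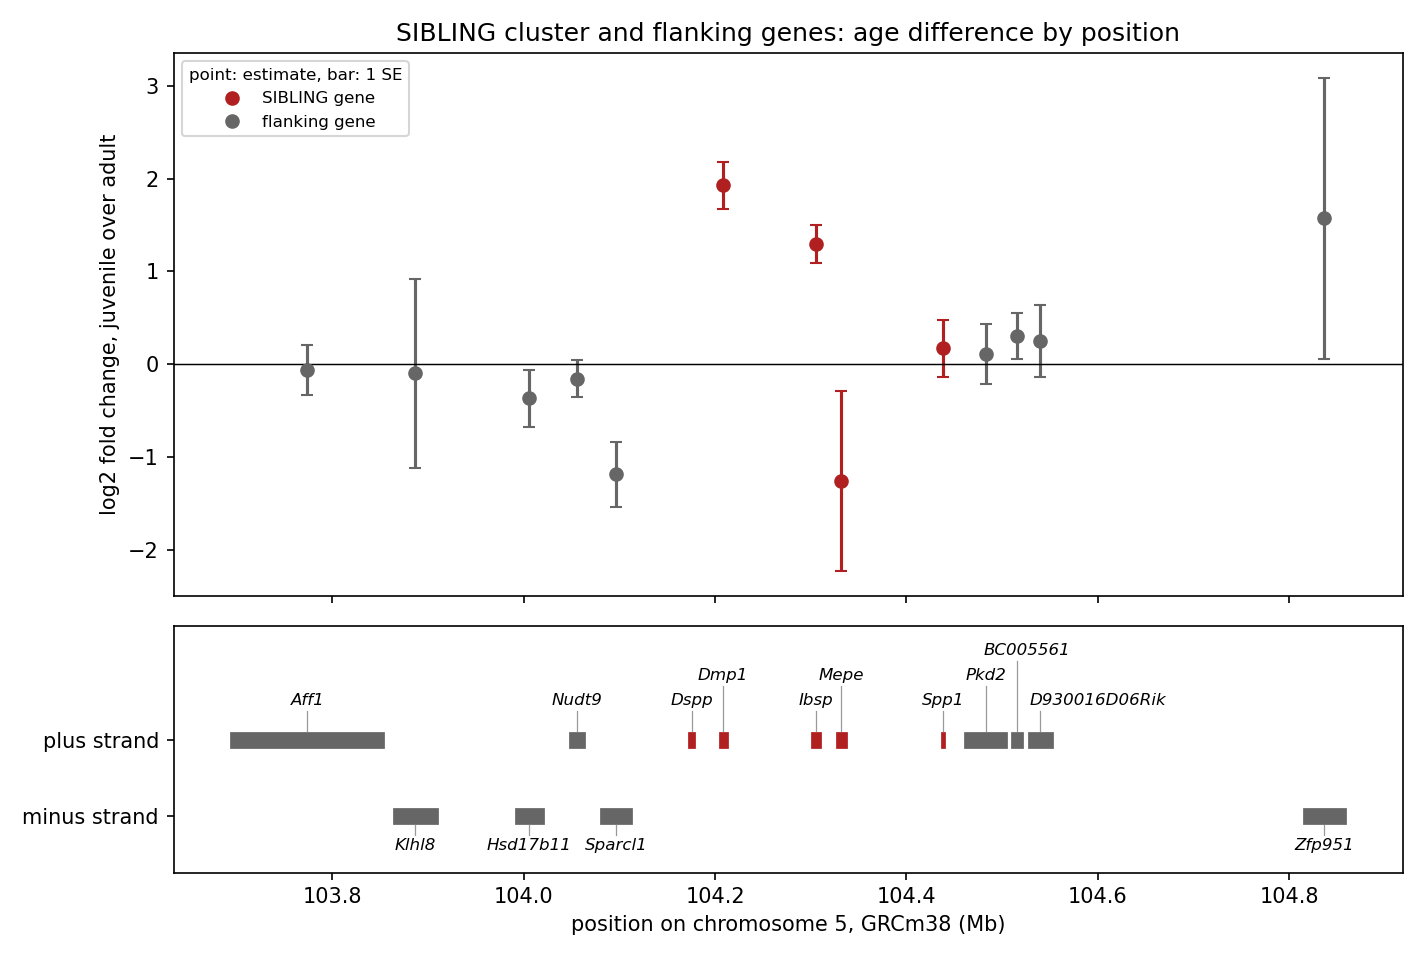
Upper panel, log2 fold change (juvenile over adult, bars 1 SE) of the 4 tested SIBLING genes and 9 tested flanking genes against the middle of each gene on chromosome 5 (GRCm38, Mb), and lower panel, the gene bodies by strand to scale. Dmp1 (1.93) and Ibsp (1.29) were called by edgeR and the other genes drawn were not, among them Spp1 (0.17) and Zfp951 (1.57, SE 1.51), and Dspp was not tested.

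The genes with the most similar pattern to each tested member were found as those whose log2 ratio to it had the smallest SD over the 9 libraries, among 8444 genes with a mean normalized count of at least 100. For Dmp1 they were Emid1 (SD 0.33), Uaca (0.36) and Pdgfrl (0.37), against a median of 1.18. The 3 genes closest to Ibsp were Wipi1, an autophagy protein (SD 0.17), Gpx3, a secreted glutathione peroxidase (0.17), and Copg1, a coat protein of Golgi vesicles (0.20), against a median of 0.91. The choice used all 9 libraries and so the age difference too, and the direction of these 6 genes follows from it. Their log2 fold changes were 1.64, 1.77 and 1.63 in the order given for Dmp1 and 1.24, 1.46 and 1.07 for Ibsp. Spp1 was followed most closely by Sdc2, syndecan 2 (SD 0.14), Slc35e4 (0.24) and 4833439L19Rik (0.25), against a median of 0.78 and with log2 fold changes of 0.26, 0.36 and 0.12. The log2 fold change of 4833439L19Rik lay below 0 without juvenile library 2 or adult library 3 or 4, at -0.045 in the lowest case. Mepe had no close match, with Wfdc17 (SD 1.06), Arl6ip6 (1.41) and Pycard (1.49) nearest against a median of 3.06 and estimates of -2.15, -0.58 and -2.32. The SDs of Mepe depend strongly on juvenile library 1, where it had 0 counts and its log2 value rests on the pseudocount. Between members, the SD of the ratio was 0.57 for Dmp1 and Ibsp, with 49 of the 8444 genes closer to Dmp1 than Ibsp was and 657 closer to Ibsp than Dmp1 was. For Dmp1 and Spp1 it was 0.93, with 1336 genes closer to Dmp1 than Spp1 was and 5900 closer to Spp1 than Dmp1 was.

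Dmp1 and Ibsp were both called higher in juvenile mice and Spp1 and Mepe were not called, so the 250 bases before the start of each of these 4 genes are shown. They come from RefSeq (GRCm38.p6), in which 4 of the 5 members matched and Dmp1 and Spp1 each had a second start. Where there were more starts, the one nearest to the annotated gene start is printed. The windows are on the plus strand, at chr5:104202367-104202616 for Dmp1, chr5:104299037-104299286 for Ibsp, chr5:104325079-104325328 for Mepe and chr5:104434861-104435110 for Spp1. The GENCODE start of Ibsp lies 116 bases before the RefSeq start, inside this window, and that of Dmp1 lies 4 bases before it. Capitals mark matches on either strand to the motifs of RUNX proteins, the TATA box, homeodomain proteins and AP-1, whose letters are spelled out after the sequences.
Dmp1: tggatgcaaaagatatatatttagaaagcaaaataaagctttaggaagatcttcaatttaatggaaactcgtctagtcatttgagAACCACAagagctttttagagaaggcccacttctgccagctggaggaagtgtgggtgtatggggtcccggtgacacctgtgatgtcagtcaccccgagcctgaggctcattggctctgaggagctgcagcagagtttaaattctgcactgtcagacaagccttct
Ibsp: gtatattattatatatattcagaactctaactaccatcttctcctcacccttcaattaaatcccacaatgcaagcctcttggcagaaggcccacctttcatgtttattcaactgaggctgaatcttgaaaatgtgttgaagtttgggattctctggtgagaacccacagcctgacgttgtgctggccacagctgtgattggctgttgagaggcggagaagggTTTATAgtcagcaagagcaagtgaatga
Mepe: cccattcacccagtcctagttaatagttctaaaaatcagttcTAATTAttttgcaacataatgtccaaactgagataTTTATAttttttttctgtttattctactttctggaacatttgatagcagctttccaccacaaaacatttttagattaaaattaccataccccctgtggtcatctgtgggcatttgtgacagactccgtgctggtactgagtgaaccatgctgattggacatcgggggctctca
Spp1: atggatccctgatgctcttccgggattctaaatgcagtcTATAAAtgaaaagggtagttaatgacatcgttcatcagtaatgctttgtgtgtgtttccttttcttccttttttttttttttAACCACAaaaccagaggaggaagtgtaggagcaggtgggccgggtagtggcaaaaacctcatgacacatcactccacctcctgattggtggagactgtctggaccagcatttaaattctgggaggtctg

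The RUNX motif AACCACA stands 165 bases before the Dmp1 start and 129 bases before the Spp1 start, and in neither of the other windows. Of 32851 RefSeq windows of the same length, 4.4% hold it. A match to the TATA box, TATAAA, begins 211 bases before the Spp1 start in the direction of the gene. Its reverse complement, TTTATA, begins 28 bases before the Ibsp start and 173 bases before that of Mepe. On either strand, 12.4% of windows hold a match. The homeodomain core TAATTA occurs once, 208 bases before the Mepe start (4.84% of windows). None of the printed windows holds the AP-1 letters TGACTCA (4.46% of windows). The second RefSeq start of Spp1 has the homeodomain core 122 bases before it, and the second of Dmp1 has no match. A match describes the letters only.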

How the data were processed

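The authors cut capillaries with the cells around them by laser, amplified polyadenylated RNA with a SMART-Seq kit and sequenced paired-end reads. The submitters' processing notes name TopHat2, Bowtie2, featureCounts and GRCm38 (mm10), and the authors deposited raw counts per Ensembl gene, without normalization. The annotation release and strand setting are not given in the sources used here. Library totals ran from 4856833 to 8077362 counts. Symbols and positions came from GENCODE for GRCm38. Ages were compared in edgeR 4.0.16 (R 4.3.3) with filterByExpr, TMM scaling, the quasi-likelihood test and Benjamini-Hochberg adjustment, called at 0.05. The test was tried on simulated data. DESeq2 1.42.0 and limma 3.58.1 voom, other scalings and filters, the replicate number as a block, each library left out and 7 libraries without Y-linked counts were alternatives. Within-library ratios used exact permutation tests. Named genes were the 5 members, called genes of the lists and markers, the most abundant marker of each list and all tested flanking genes. The 3 genes most like each tested member were named too. The kinases, Phex, Sost, Runx2 and further markers were added after their values were seen. Abundance within a list was ranked over all 9 libraries together, without division by length. Members and lists were chosen with earlier results of these data known. Figures used matplotlib 3.10.9 under Python 3.11.15.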

Additional observations from a re-analysis of the deposited data

Results flagged for a closer look

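Within each age, 174 sets of library values were searched for a single library set far apart from the rest, and 21 sets had one. The rule takes chance as about 1 in 20, but that rate need not hold for these sets. Several are low counts with values of 0 or have a long upper tail, and some share genes or vary together. Among the SIBLING genes, Mepe stood apart in juvenile library 4 (359 normalized counts, against 0 to 56.1 in the other 4), and the log2 ratio of Dmp1 to Mepe stood apart in adult library 2 (4.73, against 2.82 to 3.06). Uaca was highest in juvenile library 2 (776 normalized counts, against 460 to 530), and Zfp951 was counted in adult library 3 alone among adult libraries (14.8 normalized counts).

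Adult library 4 had the lowest summed osteoblast markers (77384 CPM, against 105671 to 109372), the lowest Atp6v0d2 (1739 normalized counts, against 2090 to 2121), the highest megakaryocyte sum (4795 CPM), and the highest Hba-a1 (77666 normalized counts) and Alas2 (2273). Alas2 was also highest in juvenile library 1 (209 normalized counts, against 7.07 to 57.9). Adult library 2 had the highest chondrocyte sum (6421 CPM, against 2108 to 2634), Col2a1 (19566 normalized counts) and Comp (3037), and the lowest S100a8 (169, against 7374 to 8480) and S100a9 (162, against 6315 to 7042).

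Juvenile library 4 had the lowest adipogenic stroma sum (284 CPM, against 426 to 457) and the highest Ngp (80.1 normalized counts) and S100a8 (106). Its Ltf value (1.18, against 0) is 1 count, under the limit of 3 counts. Elane (25.3) and Mpo (141) were highest in juvenile library 2. The causes were not tested.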

How the results depend on the processing

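Dmp1 was called higher in juvenile mice under each of the 18 alternatives, at log2 fold changes of 1.76 to 2.21, and Ibsp under 17 of 18, at 1.15 to 1.40. With the replicate number as a block, Ibsp was 1.36 (edgeR's quasi-likelihood test, Benjamini-Hochberg adjusted p = 0.0555, the highest over its alternatives). Whether the numbers pair the mice was not settled: correlations of libraries with the same number were -0.03 to 0.03, while 5 of the 8 libraries that have a partner matched best with it. The block gave 89 genes called between the ages in place of 520, DESeq2 1509, and 7 libraries without juvenile 4 and 5 gave 73, while leaving out single libraries gave 262 to 651. The median log2 fold change over all genes moved most with limma voom, to 0.11. DESeq2 and a minimum of 10 counts in every library each called 1 flanking gene, Sparcl1. With that minimum Mepe was not tested.

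Estimates near 0 changed sign. Leaving out single libraries gave Spp1 -0.079 to 0.40, Pkd2 -0.10 to 0.34, Klhl8 -0.53 to 0.41, Aff1 -0.18 to 0.074, Fam20a -0.39 to 0.12, Fam20b -0.059 to 0.31 and 4833439L19Rik -0.045 to 0.27. With the block the log2 fold change of Pkd2 was -0.0035, that of Klhl8 0.18 and the log2 fold change of Fam20b -0.038. Limma voom gave Klhl8 0.11, and the 7 libraries gave Pkd2 -0.19 and Fam20b -0.057.

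Of the ratios, Dmp1 over Spp1 had an unadjusted p under 0.05 in every alternative with a test (exact permutation test, 0.00794 to 0.0286). Unlike in the main result, these p-values were not adjusted over the 6 pairs. Without a single library the smallest possible p is 0.0286 or 0.0179. Leaving out single libraries gave 0.41 to 0.80 for Dmp1 over Ibsp, 3.50 to 6.04 for Dmp1 over Mepe, 3.04 to 5.24 for Ibsp over Mepe and 1.92 to 4.37 for Spp1 over Mepe. The 7 libraries gave 0.99 for Dmp1 over Ibsp and 4.78 for Spp1 over Mepe. Both then had an unadjusted p under 0.05 (exact permutation test, p = 0.0286), the smallest that 3 juvenile against 4 adult libraries can give. Relative to the osteoblast list, the 7 libraries gave Ibsp 0.83 and Spp1 0.077, and single libraries left out gave Spp1 -0.32 to 0.12 and Mepe -4.46 to -2.10. Against Col1a1 and Col1a2, Dmp1 was 0.57, Ibsp relative to the osteoblast list became -0.027, and Spp1 -1.02. Without these collagens, Spp1 relative to the osteoblast list was 0.072 and Mepe relative to the osteoblast list -3.33, and within replicate numbers 1 to 4, as a block, Spp1 was 0.010. Fewer libraries raise the smallest p a permutation can give, and otherwise the cause was not tested.

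The counts of called genes per list under each alternative were added after seeing the data. Among the values of single named genes other than the members, 956 kept direction and side of the threshold, 126 lost the call, 4 gained it and 22 changed sign. Genes with few counts, such as Dspp, are limited by depth.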
